A study of Mus musculus with 6 samples.

Results

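The 40 genes described here encode the enzymes with which the liver breaks down amino acids, together with the enzymes that keep their cofactors in use. They were chosen by name, from knowledge of the pathways, by a rule that uses no measured value but at a time when earlier results of these data were known, and all 40 were found among the 56691 genes of the deposited table. Liver RNA of 6 pregnant mice was sequenced. The KPF group holds 3 dams (libraries KPF 1, KPF 2 and KPF 3) labelled hChrebp-KO, in which hepatocytes lack ChREBP, and the WPF group holds 3 dams (WPF 2, WPF 3 and WPF 4) that carry no knockout. All 6 dams were fed HFrD, a diet rich in fructose, during pregnancy. The labels call the WPF genotype wild type (WT), whereas the methods of the study describe them as *Chrebp* flox/flox. In KPF the floxed allele was removed by a Cre recombinase driven by the albumin promoter, which is active in hepatocytes, so that the other cells of the liver keep the gene, and the dams of both groups were mated with *Chrebp* flox/flox males. No label names a batch, an age or a shared litter, and no group on a normal diet is compared here.

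Amino acids that are not used for protein are stripped of their nitrogen, which leaves the liver mainly as urea, and their carbon enters the citric acid cycle, glucose or ketone bodies. Most of these pathways run chiefly in hepatocytes, and several of their first enzymes are known to respond to glucagon, glucocorticoids and dietary protein. Branched-chain amino acids are the exception, since the liver is known for low activity of the branched-chain aminotransferase and receives their keto acids from other tissues. ChREBP is a transcription factor activated by sugars, best known for its glycolytic and lipogenic target genes.

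The libraries held between 10694496 and 14496630 counted reads, with the KPF libraries all below the WPF libraries. Values per library are given as CPM, the read count scaled to a common library size by TMM, and levels are compared between genes by FPKM, the read count scaled to exon length and library total. *Mlxipl*, the gene of ChREBP, was counted at 179, 700 and 849 CPM in KPF 1, KPF 2 and KPF 3 and at 961, 1260 and 879 CPM in WPF 2, WPF 3 and WPF 4, which is -0.84 as a log2 fold change (standard error 0.53, adjusted p = 0.584 by edgeR). The counts cover the whole gene and do not resolve the floxed exon, so they check the knockout only in part. A pair of libraries stood apart. WPF 4 had a summed level of 4512 CPM over 16 ChREBP target genes, within the range of KPF (4457 to 4881 CPM) and below WPF 2 and WPF 3 (21086 and 25953 CPM). KPF 2 carried skeletal muscle transcripts, with *Acta1* at 770 CPM and *Ckm* at 517 CPM, both under 5 CPM in the other 5 libraries. *Fabp4*, a gene of fat and endothelial cells, was at 34.7 and 36.1 CPM in KPF 1 and KPF 2 and at 4.86 to 11.8 CPM in the other 4 libraries, while the adipocyte gene *Adipoq* was at 1.24 CPM or less in all 6. The sum over 13 stellate and endothelial markers was 242 to 745 CPM in KPF and 174 to 205 CPM in WPF. Of these markers 5 were called higher and 0 lower, or 38.5%, against 9.82% of all tested genes. The list was mixed, with 9 estimates above and 4 below 0. *Stab2*, a gene of sinusoidal endothelial cells, was lower in every KPF library (log2 fold change -0.41, not called). *Des*, a gene of both stellate and muscle cells, gave 486 CPM of the sum in KPF 2, and without it the sum was 368, 259 and 232 CPM in KPF 1, KPF 2 and KPF 3 and 164 to 196 CPM in WPF. The sum over 10 hepatocyte markers, led by albumin, was 91577 to 120458 CPM in KPF and 119252 to 195990 CPM in WPF, with 1 of the 10 called lower. In whole liver RNA, fewer hepatocytes and less RNA per hepatocyte cannot be told apart, and the part of these differences in the values below was not tested.

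The groups did not overlap in 5 of the 40 members, against 15.7% of all genes tested, a share that does not set the members apart. For 4 of these 5 the 250 bases upstream of the transcription start are given here from the RefSeq table of GRCm38.p6. *Qdpr* and *Pcbd1* work in the same cofactor cycle and stood lower in KPF, *Hibch* belongs to valine breakdown and stood lower, and *Prodh2* opens the breakdown of hydroxyproline and stood higher. Each sequence is read 5′ to 3′ on the strand of its gene, and capitals mark motif matches on either strand. The motifs searched were the CCAAT box, the GC box with the letters GGGCGG, the TATA box with the letters TATAAA and the inner letters GTTAAT of sites bound by HNF1, a transcription factor of hepatocytes. The windows lie at chr5:45450230-45450479 (minus strand, *Qdpr*), chr10:61089081-61089330 (plus strand, *Pcbd1*), chr7:30493408-30493657 (plus strand, *Prodh2*) and chr1:52844788-52845037 (plus strand, *Hibch*).
Qdpr: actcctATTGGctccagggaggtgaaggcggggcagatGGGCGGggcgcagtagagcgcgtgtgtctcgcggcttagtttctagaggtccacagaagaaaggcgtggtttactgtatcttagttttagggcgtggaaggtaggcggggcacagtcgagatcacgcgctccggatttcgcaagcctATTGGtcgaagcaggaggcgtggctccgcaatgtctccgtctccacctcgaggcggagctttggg
Pcbd1: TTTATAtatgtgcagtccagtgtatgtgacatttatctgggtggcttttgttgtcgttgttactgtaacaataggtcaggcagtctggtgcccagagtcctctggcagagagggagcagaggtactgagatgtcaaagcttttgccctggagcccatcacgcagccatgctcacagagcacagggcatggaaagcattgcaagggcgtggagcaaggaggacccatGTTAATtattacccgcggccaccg
Prodh2: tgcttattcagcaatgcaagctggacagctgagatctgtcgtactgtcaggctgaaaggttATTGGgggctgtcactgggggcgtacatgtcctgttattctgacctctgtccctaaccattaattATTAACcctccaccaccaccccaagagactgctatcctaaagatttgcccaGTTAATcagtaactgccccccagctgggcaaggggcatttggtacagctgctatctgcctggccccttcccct
Hibch: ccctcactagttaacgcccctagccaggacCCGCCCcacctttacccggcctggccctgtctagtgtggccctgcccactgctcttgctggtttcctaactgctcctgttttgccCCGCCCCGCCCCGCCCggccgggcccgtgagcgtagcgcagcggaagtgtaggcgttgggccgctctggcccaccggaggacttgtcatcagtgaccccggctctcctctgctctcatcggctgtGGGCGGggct

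These windows differ in kind. The *Hibch* window was rich in G and C (68.0%) and held 5 GC boxes, 3 of them overlapping end to end, whereas the *Pcbd1* and *Prodh2* windows had 51.6% G and C and held 1 and 2 matches to the HNF1 letters. The *Qdpr* window held 2 CCAAT boxes and 1 GC box. Of the 40 members, 34 were in the promoter table. A CCAAT box was found in 19 of the 34 (55.9%) against 34.5% of 27025 promoters of the same length, a GC box in 14 (41.2% against 32.9%), a TATA box in 7 (20.6% against 13.0%) and the HNF1 letters in 5 (14.7% against 6.52%). The palindromic E-box CACGTG was found in 1 member (*Mccc2*, 2.94% against 6.05%), and the cyclic AMP response element TGACGTCA in 0 of 34 (1.62% of all promoters). The letters CACGTG alone are not a whole binding site of ChREBP, and whole sites were not searched for. Motif matches of this kind are letters in a window and not measured binding.

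All 40 enzymes were expressed, with a mean FPKM between 1.30 (*Mccc1*) and 641 (*Hpd*). The question was whether livers without hepatocyte ChREBP differ from floxed livers in these enzymes under the same fructose diet. A gene was called when it differed by 1.5-fold or more and its unadjusted p in edgeR was under 0.05. By this rule 3 of the 40 members were called, or 7.5%, against 9.82% of the 10866 genes tested, so the share of called members was not above that of the table as a whole. *Prodh2* was called higher in KPF (5.83% of all genes were called higher), and *Qdpr* and *Hibch* were called lower (3.98% of all genes). No member and no other gene passed an adjusted p of 0.05 in this test (smallest adjusted p 0.430 among members and 0.397 among all genes), while 1177 genes, or 10.8%, had an unadjusted p under 0.05. DESeq2 passed 156 genes at this adjusted limit, with no member among them. Of the 5 members in which the groups did not overlap, *Gstz1* and *Prodh2* were higher in every KPF library (7.55% of all genes), and *Qdpr*, *Pcbd1* and *Hibch* were lower in every KPF library (8.15% of all genes, exact two-sided permutation test, p = 0.1 for each, the smallest p that 3 dams against 3 allow). The median log2 fold change of the members was 0.03, beside 0.02 over all tested genes, with 23 members above and 17 below 0 and a range from -0.98 to 0.95. The change was under 1.5-fold in 29 members. It was at least 1.5-fold without reaching the p limit in 8, namely *Hpd*, *Pcbd1*, *Afmid*, *Kynu*, *Sds*, *Agxt*, *Gldc* and *Ivd*. Which members were called depended on single libraries. Without KPF 3 the number was 6, without WPF 4 it was 5, without WPF 3 it was 1 and without WPF 2 it was 0. Without KPF 1 the calls were *Aass* and *Sds*, and without KPF 2 they were *Agxt*, *Haao* and *Prodh*, so that *Qdpr*, *Prodh2* and *Hibch* were not called in either case.

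**Figure D1:**
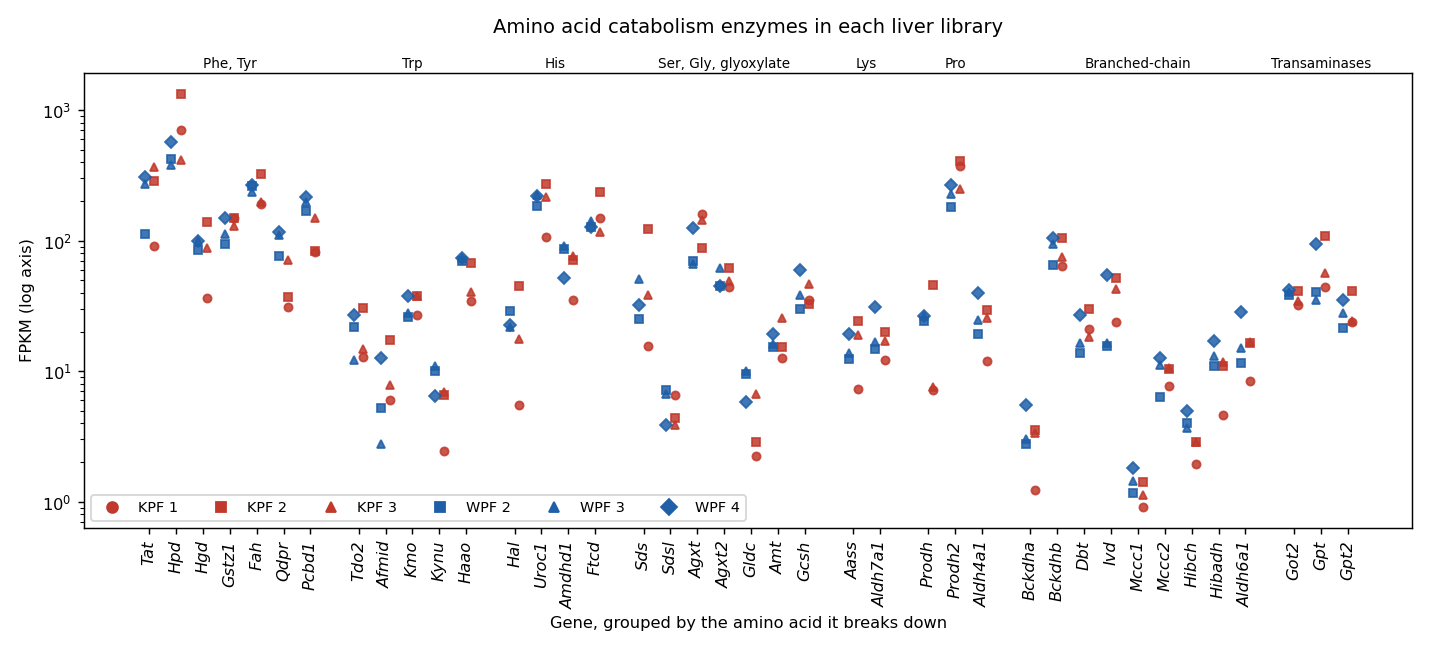
FPKM (log axis) of the 40 enzymes in each of the 6 liver libraries, grouped by the amino acid they break down, with KPF in red, WPF in blue and 1 symbol for each library. Levels run from 0.91 FPKM (*Mccc1* in KPF 1) to 1342 FPKM (*Hpd* in KPF 2), the KPF and WPF symbols are mixed in most genes, and the circle of KPF 1 is often the lowest symbol of its gene.

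**Figure D2:**
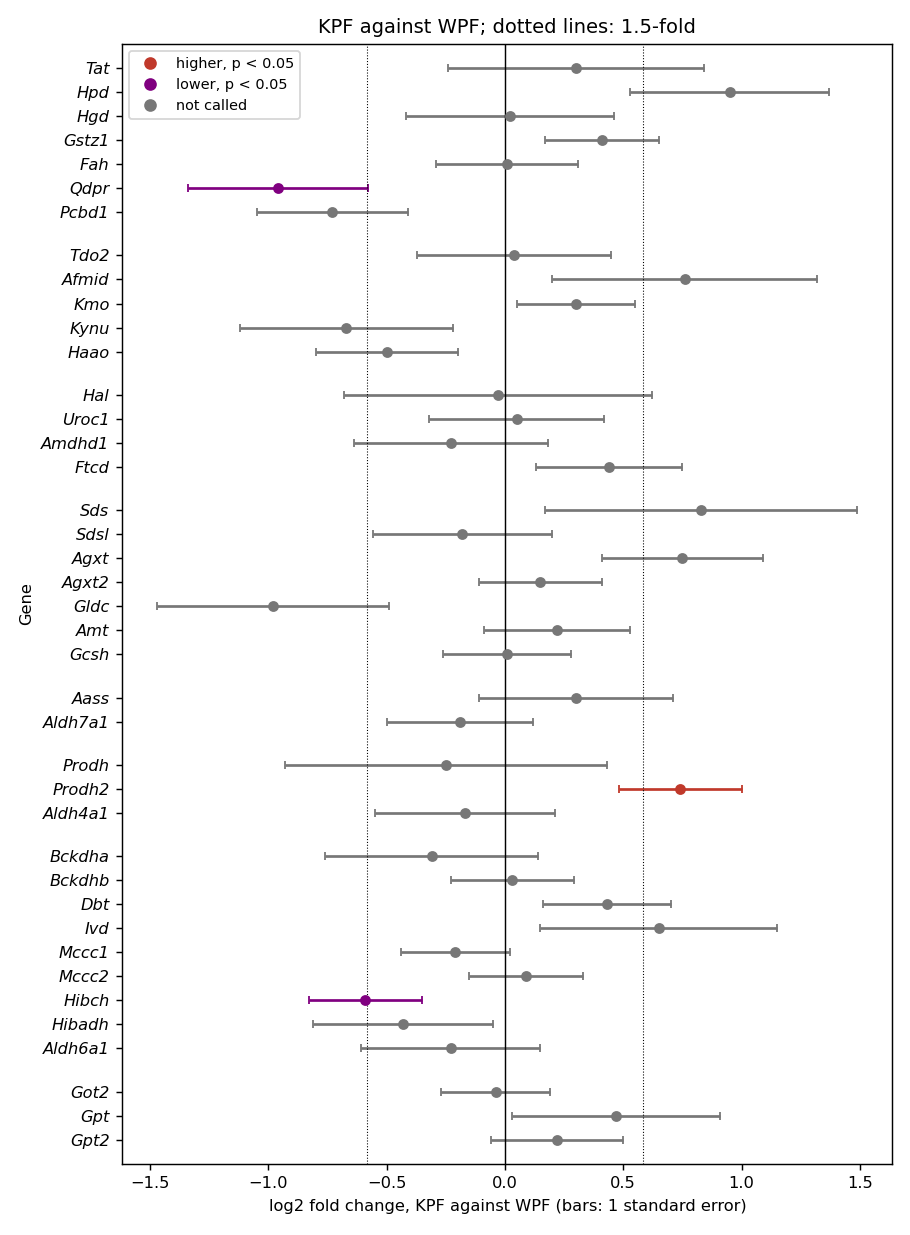
log2 fold change of KPF against WPF for each enzyme from edgeR's quasi-likelihood test, with bars of 1 standard error and dotted lines at 1.5-fold. The estimates lie on both sides of 0, and the 3 called genes are *Prodh2* (0.74), *Qdpr* (-0.96) and *Hibch* (-0.59).

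In the breakdown of phenylalanine and tyrosine, the enzymes that recycle the cofactor tetrahydrobiopterin were lower in every KPF library, 1 of them called, and no enzyme that acts on tyrosine itself was called. Tetrahydrobiopterin is oxidised when aromatic amino acids are hydroxylated, and *Pcbd1* (pterin carbinolamine dehydratase) and *Qdpr* (dihydropteridine reductase) restore it in succession. *Qdpr* (ENSMUSG00000015806, chromosome 5 from 45591363 to 45607578 in the coordinates of the deposited table) was counted at 56.2, 66.4 and 142 CPM in KPF 1, KPF 2 and KPF 3 and at 152, 184 and 178 CPM in WPF 2, WPF 3 and WPF 4. KPF 1 and KPF 2 were far below every WPF library, and KPF 3 was just below the lowest of them. The level was 46.4 ± 21.8 FPKM in KPF and 101 ± 22.4 FPKM in WPF (mean ± SD, n = 3 dams each), and the log2 fold change was -0.96 (standard error 0.38, unadjusted p = 0.0353, adjusted p = 0.443 by edgeR). *Qdpr* was still called without KPF 3 (log2 fold change -1.48). With any other library left out the log2 fold change was between -1.04 and -0.72 and the unadjusted p was between 0.0559 and 0.0980. *Pcbd1* (ENSMUSG00000020098, chromosome 10 from 60925110 to 60930103), which also serves as a cofactor for dimers of the transcription factor HNF1, followed the same order, with 68.0, 68.2 and 136 CPM in KPF and 155, 150 and 149 CPM in WPF. Its WPF libraries were close together. The log2 fold change was -0.73 (standard error 0.32), and the unadjusted p of 0.0538 kept it from being called (adjusted p = 0.464 by edgeR). It was called without KPF 3, with a log2 fold change of -1.15, and in 6 of 15 alternatives in all. In both genes KPF 3 was the KPF library nearest to WPF.

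The other genes of this cofactor were read from a list of enzymes of the same pathways, and *Pts* and *Gch1* were picked from it for their role with their values known. *Pts*, which makes the precursor of tetrahydrobiopterin, was at 23.8, 30.2 and 34.3 CPM in KPF and 36.7, 37.9 and 44.9 CPM in WPF. The groups did not overlap, and the log2 fold change was -0.44 (standard error 0.21, unadjusted p = 0.0750 by edgeR). *Gch1*, the first enzyme of its synthesis, had a log2 fold change of -0.01 (standard error 0.43), with KPF 2 at 56.8 CPM above and KPF 1 at 19.1 CPM below every WPF library. In the GENCODE M21 annotation 18.6% of the exon bases of *Qdpr* also belong to the gene model Gm42413, so part of its reads could have been assigned differently.

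**Figure D3:**
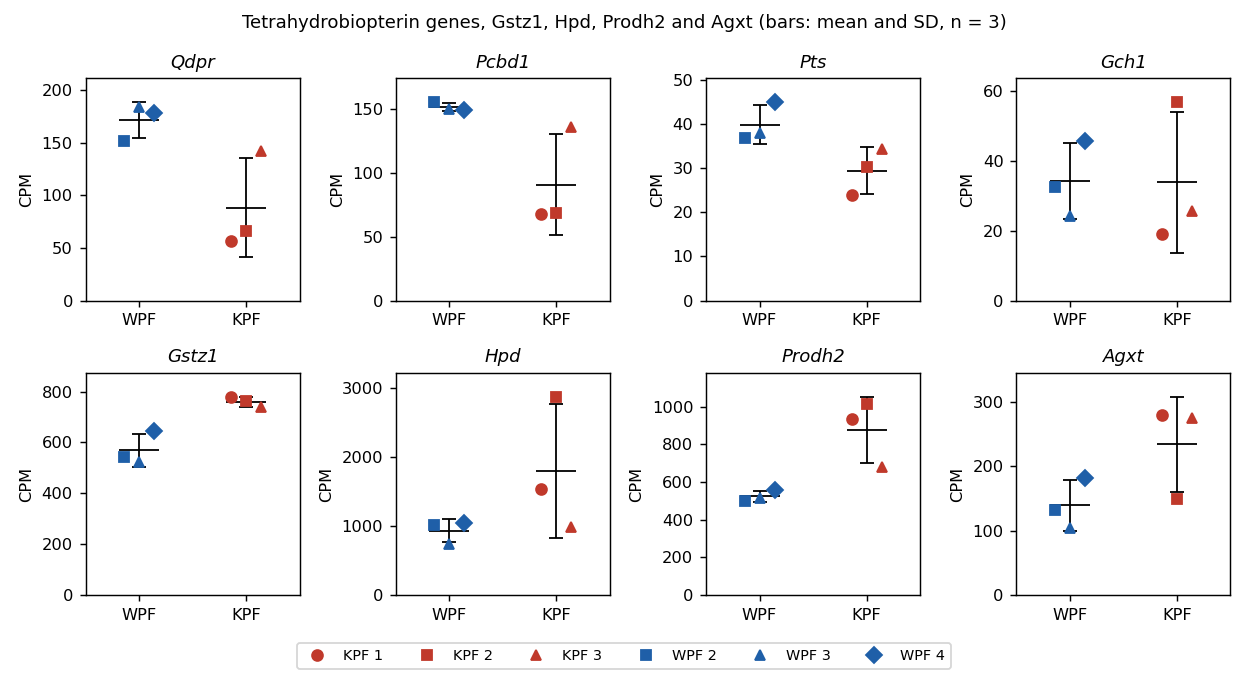
CPM of *Qdpr*, *Pcbd1*, *Pts*, *Gch1*, *Gstz1*, *Hpd*, *Prodh2* and *Agxt* in each library, with horizontal bars for the mean and vertical bars for the SD of the 3 dams of a group. *Qdpr*, *Pcbd1* and *Pts* are lower in every KPF library, *Gstz1* and *Prodh2* are higher in every KPF library (679 to 1016 against 501 to 559 CPM for *Prodh2*), and the groups overlap in the other 3.

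The enzymes that act on tyrosine itself form a chain from *Tat* through *Hpd*, *Hgd* and *Gstz1* to *Fah*. *Tat*, the aminotransferase of the first step and a gene long used to study glucocorticoid induction, was at 221, 690 and 981 CPM in KPF and 304, 600 and 631 CPM in WPF, a log2 fold change of 0.30 with a standard error of 0.54. *Hpd*, hydroxyphenylpyruvate dioxygenase, had the highest level of all 40 members and was at 1529, 2872 and 990 CPM in KPF and 1014, 743 and 1040 CPM in WPF. KPF 1 and KPF 2 were above every WPF library and KPF 3 was among them. *Hpd* had a log2 fold change of 0.95 (standard error 0.42, unadjusted p = 0.0553, adjusted p = 0.464 by edgeR), and its estimate lay between 0.43 (without KPF 2) and 1.24 (without KPF 3, where it was called). *Gstz1*, maleylacetoacetate isomerase, was at 778, 763 and 738 CPM in KPF and 541, 524 and 644 CPM in WPF, so the groups did not overlap. Its log2 fold change of 0.41 (standard error 0.24, unadjusted p = 0.119 by edgeR) was below the 1.5-fold line. Of its exon bases 12.2% are shared with other genes, among them *Pomt2*. *Hgd*, homogentisate dioxygenase, and *Fah*, fumarylacetoacetate hydrolase, had log2 fold changes of 0.02 and 0.01 with standard errors of 0.44 and 0.30. The WPF libraries of *Hgd* were close together, at 222 to 250 CPM, while KPF ranged from 97.2 to 367 CPM. *Fah* was at 434, 725 and 484 CPM in KPF and 649, 481 and 499 CPM in WPF.

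None of the 5 tryptophan and kynurenine genes was called. They stand along 1 route, in which *Tdo2* (tryptophan dioxygenase) and *Afmid* (kynurenine formamidase) make kynurenine, and *Kmo*, *Kynu* and *Haao* turn it towards NAD precursors. *Haao*, the last of them and the one with the highest level (60.0 FPKM) and the smallest p, was at 165, 318 and 211 CPM in KPF and 366, 319 and 294 CPM in WPF. KPF 1 and KPF 3 were below every WPF library and KPF 2 was among them, which gave a log2 fold change of -0.50 (standard error 0.30, unadjusted p = 0.142 by edgeR). Without KPF 2 *Haao* was called lower, with a log2 fold change of -0.80 and an unadjusted p of 0.0221. *Kynu*, kynureninase, had a log2 fold change of -0.67 (standard error 0.45), with KPF 1 at 15.3 CPM against 33.8 to 69.9 CPM in WPF. *Afmid* went the other way, with 0.76 (standard error 0.56), and was called higher without WPF 4 (log2 fold change 1.36). It ranged from 8.99 CPM in WPF 3 to 62.1 CPM in KPF 2, and 46.6% of its exon bases lie in other genes, among them *Tk1*. *Tdo2* and *Kmo* had log2 fold changes of 0.04 and 0.30, with standard errors of 0.41 and 0.25.

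The 4 genes of histidine breakdown ranged widely among the KPF livers, and none of them was called. *Hal*, the histidine ammonia-lyase that opens the route, was at 31.0, 251 and 108 CPM in KPF and 182, 111 and 106 CPM in WPF. The lowest and the highest of the 6 values were both KPF dams, 8.12-fold apart, and the log2 fold change was -0.03 (standard error 0.65). *Uroc1*, the urocanase of the next step and the most abundant of the 4 (204 FPKM), was at 377, 945 and 840 CPM in KPF and 720, 720 and 653 CPM in WPF (log2 fold change 0.05, standard error 0.37). *Amdhd1*, imidazolonepropionase, was at 86.8 to 205 CPM in KPF and 107 to 236 CPM in WPF (log2 fold change -0.23). *Ftcd*, the folate-dependent enzyme that ends the route, was at 485, 761 and 412 CPM in KPF and 457, 419 and 347 CPM in WPF, a log2 fold change of 0.44 (standard error 0.31, unadjusted p = 0.194 by edgeR).

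None of the 7 genes of serine, glycine and glyoxylate was called, and their estimates spread from -0.98 to 0.83. *Agxt*, the aminotransferase that turns glyoxylate into glycine and so keeps it from becoming oxalate, was at 279, 149 and 274 CPM in KPF and 132, 104 and 182 CPM in WPF. KPF 1 and KPF 3 were above every WPF library and KPF 2 was among them. For *Agxt* the log2 fold change was 0.75 (standard error 0.34, unadjusted p = 0.0614, adjusted p = 0.475 by edgeR). *Agxt* was called higher without KPF 2 and without WPF 4, the libraries set apart above, with log2 fold changes of 0.99 and 0.98. Its relative *Agxt2*, a mitochondrial aminotransferase, was at 143, 196 and 171 CPM in KPF and 159, 181 and 121 CPM in WPF (log2 fold change 0.15, standard error 0.26). *Sds*, serine dehydratase, which turns serine into pyruvate, was at 27.1, 208 and 72.8 CPM in KPF and 48.1, 78.9 and 46.1 CPM in WPF. KPF 2 was 7.69-fold above KPF 1 and over 2-fold above the WPF mean. Its log2 fold change of 0.83 had a standard error of 0.66, and 29.6% of its exon bases are shared with other genes, among them *Plbd2*. The estimate was -0.22 without KPF 2 and 1.28 without KPF 1, where *Sds* was called. *Sdsl*, its relative, was expressed at a lower level (5.43 against 47.4 FPKM for *Sds*), with 6.56, 4.41 and 3.87 FPKM in KPF and 7.15, 6.72 and 3.87 FPKM in WPF (log2 fold change -0.18, standard error 0.38).

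The glycine cleavage system splits glycine into carbon dioxide, ammonia and a folate-bound carbon, and none of the members among its protein parts was called. *Gldc*, the decarboxylase, was at 13.9, 17.6 and 45.2 CPM in KPF and 64.9, 56.1 and 30.3 CPM in WPF. KPF 1 and KPF 2 were below every WPF library, and KPF 3 lay above WPF 4. *Gldc* had a log2 fold change of -0.98 (standard error 0.49, unadjusted p = 0.0807, adjusted p = 0.505 by edgeR). It was called lower without KPF 3 (-1.68) and without WPF 4 (-1.25), and in 8 of 15 alternatives in all. *Amt*, the aminomethyltransferase, had a log2 fold change of 0.22 (standard error 0.31), and *Gcsh*, the lipoyl carrier protein, of 0.01 (standard error 0.27). The difference between *Gldc* and its partners was not tested.

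Both lysine genes overlapped between the groups. *Aass*, which joins lysine to ketoglutarate, was at 28.4, 93.1 and 81.0 CPM in KPF and 53.1, 48.8 and 63.0 CPM in WPF. KPF 1 was below and KPF 2 and KPF 3 were above every WPF library, which left a log2 fold change of 0.30 (standard error 0.41). Without KPF 1 *Aass* was called higher, with a log2 fold change of 0.66 and an unadjusted p of 0.0275. *Aldh7a1*, the aldehyde dehydrogenase further down the route, was at 64.7, 104 and 98.0 CPM in KPF and 85.5, 80.3 and 138 CPM in WPF (log2 fold change -0.19, standard error 0.31).

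Proline and hydroxyproline are opened by separate dehydrogenases, and the transcripts of these were distributed differently over the dams. *Prodh2* (ENSMUSG00000036892, chromosome 7 from 30193047 to 30212827), the hydroxyproline dehydrogenase, was at 937, 1016 and 679 CPM in KPF and 501, 513 and 559 CPM in WPF. Every KPF library was above every WPF library, and the WPF libraries were close together. The level was 344 ± 85.1 FPKM in KPF and 225 ± 43.3 FPKM in WPF (mean ± SD, n = 3 dams each), and the log2 fold change was 0.74 (standard error 0.26, unadjusted p = 0.0235, adjusted p = 0.430 by edgeR). *Prodh2* was called without KPF 3 and without WPF 4. With another library left out the log2 fold change was between 0.62 and 0.73, with unadjusted p from 0.0563 to 0.0778, and with library totals in place of TMM it was 0.61 (unadjusted p = 0.0783). *Prodh*, the proline dehydrogenase, was expressed at a lower level (23.0 against 285 FPKM) and was at 57.5, 362 and 65.6 CPM in KPF and 213, 190 and 175 CPM in WPF. KPF 1 and KPF 3 were far below WPF and KPF 2 was far above it. Over all dams the log2 fold change was -0.25 (standard error 0.68, unadjusted p = 0.719). Without KPF 2, the library with the muscle transcripts, it was -1.65 (unadjusted p = 0.000336, adjusted p = 0.286 by edgeR), and without both KPF 2 and WPF 4 it was -1.72 (adjusted p = 0.0704), the smallest adjusted p of any member under the 15 alternatives. *Aldh4a1*, the dehydrogenase both routes share, was at 59.7, 144 and 139 CPM in KPF and 107, 112 and 166 CPM in WPF (log2 fold change -0.17, standard error 0.38), with 32.5% of its exon bases shared with another gene model. Carbon from hydroxyproline passes on through *Got2* and *Hoga1* to glyoxylate, the substrate of *Agxt*. *Hoga1*, picked for that role with its values known, had a log2 fold change of 0.15 (standard error 0.24).

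Of the 9 branched-chain genes, 1 was called, or 11.1% against 9.82% of all tested genes. *Hibch* (ENSMUSG00000041426, chromosome 1 from 52884088 to 52960145) hydrolyses hydroxyisobutyryl-CoA in the breakdown of valine, and stood at 11.9, 17.5 and 19.2 CPM in KPF and 27.2, 20.5 and 25.4 CPM in WPF. KPF 3 was just below WPF 3, and the groups did not overlap. The level was 2.55 ± 0.537 FPKM in KPF and 4.20 ± 0.653 FPKM in WPF (mean ± SD, n = 3 dams each), and the log2 fold change of -0.59 (standard error 0.24, unadjusted p = 0.0419, adjusted p = 0.453 by edgeR) was at the edge of the 1.5-fold line. With the size factors of DESeq2 in place of TMM it was -0.58 and no longer called. It was called without KPF 3 and without WPF 3, and with another library left out the log2 fold change was between -0.65 and -0.41, with unadjusted p from 0.0521 to 0.128. The next enzymes of valine breakdown, *Hibadh* and *Aldh6a1*, had log2 fold changes of -0.43 and -0.23 (standard error 0.38 for each). KPF 1 was the lowest library in both, at 47.8 and 49.2 CPM, and 18.6% of the exon bases of *Aldh6a1* are shared with *Bbof1*.

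The branched-chain keto acid dehydrogenase commits the keto acids of leucine, isoleucine and valine to oxidation, and none of its 3 subunits among the members was called. *Bckdhb*, the beta subunit of its decarboxylase and the most abundant branched-chain gene (84.8 FPKM), was at 118, 191 and 151 CPM in KPF and 133, 157 and 160 CPM in WPF (log2 fold change 0.03, standard error 0.26). *Bckdha*, the alpha subunit, was counted at 2.38, 6.72 and 7.11 CPM in KPF and 5.88, 5.27 and 8.90 CPM in WPF (log2 fold change -0.31, standard error 0.45). It was listed at 3.23 FPKM, with as few as 25 reads in a library, and 61.7% of its exon bases are shared with *B3gnt8*, so its level is uncertain. *Dbt*, the transacylase core, had a log2 fold change of 0.43 (standard error 0.27), and was at 72.1, 100 and 67.9 CPM in KPF and 51.5, 50.4 and 76.2 CPM in WPF. The branched-chain aminotransferase gene *Bcat2* is not a member and was named after its values were seen. Its transcript was present in these whole livers, at 155, 104 and 82.5 CPM in KPF and 66.4, 51.6 and 110 CPM in WPF. The mean level of *Bcat2* was 24.6 FPKM (log2 fold change 0.58, standard error 0.36).

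In leucine breakdown *Ivd*, isovaleryl-CoA dehydrogenase, divided the WPF group. It was at 134, 288 and 262 CPM in KPF and 96.3, 83.7 and 256 CPM in WPF. WPF 4 was in the upper part of the KPF range, and WPF 2 and WPF 3 were below every KPF library. This gave a log2 fold change of 0.65 (standard error 0.50, unadjusted p = 0.231 by edgeR). Without WPF 4 it was 1.33 with an unadjusted p of 0.0129, and *Ivd* was called higher. *Mccc1* and *Mccc2*, the subunits of methylcrotonyl-CoA carboxylase, had log2 fold changes of -0.21 and 0.09 (standard errors 0.23 and 0.24).

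The branched-chain dehydrogenase is switched off by the kinase *Bckdk* and on by the phosphatase *Ppm1k*, and both have been described as responding to fructose and ChREBP in rodent liver, so they are given beside it although they are not members. *Ppm1k* was at 14.9, 83.1 and 40.8 CPM in KPF and 13.0, 4.92 and 32.6 CPM in WPF. KPF 2 and KPF 3 were above every WPF library, KPF 1 was among them, and WPF 4 was the highest of the WPF libraries, as for *Ivd*. *Ppm1k* had a log2 fold change of 1.45 (standard error 0.77, unadjusted p = 0.0972, adjusted p = 0.525 by edgeR). It was 2.36 without WPF 4 (unadjusted p = 0.0198) and 0.71 without KPF 2 (unadjusted p = 0.356). *Bckdk*, picked for its role with its values known, had a log2 fold change of 0.33 (standard error 0.28), with the groups overlapping. *Slc25a44*, the carrier that brings branched-chain amino acids into mitochondria, was called lower, with 12.6, 12.3 and 23.5 CPM in KPF and 37.6, 51.1 and 22.5 CPM in WPF. WPF 4 was within the KPF range, as it also was for *Bckdhb*, *Dbt* and *Bckdk*, whose groups overlapped. For *Slc25a44* the log2 fold change was -1.20 (standard error 0.38, unadjusted p = 0.0140, adjusted p = 0.430 by edgeR), and without WPF 3 it was -0.90 and not called (unadjusted p = 0.0567).

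**Figure D4:**
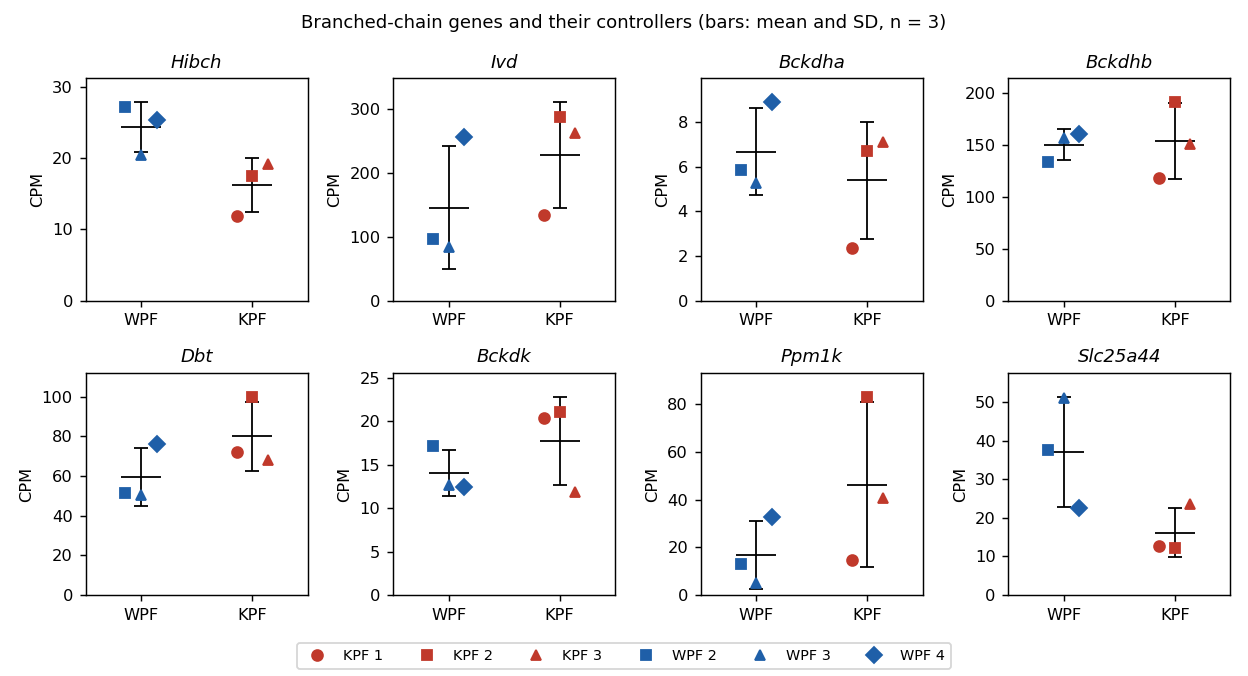
CPM of the branched-chain genes *Hibch*, *Ivd*, *Bckdha*, *Bckdhb* and *Dbt*, the controllers *Bckdk* and *Ppm1k* and the carrier *Slc25a44* in each library, with the mean and SD of the 3 dams of a group. *Hibch* is lower in every KPF library. The diamond of WPF 4 lies within the KPF range in every gene shown except *Hibch* and *Bckdha*.

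The general transaminases, which pass amino groups between amino acids and keto acids, were not called. *Gpt*, the cytosolic alanine aminotransferase and the most abundant of the 3 (63.1 FPKM), was at 134, 322 and 184 CPM in KPF and 133, 95.3 and 234 CPM in WPF, a log2 fold change of 0.47 (standard error 0.44). *Gpt2*, its mitochondrial relative at 28.9 FPKM, was at 137, 232 and 153 CPM in KPF and 136, 145 and 168 CPM in WPF, a log2 fold change of 0.22 (standard error 0.28). KPF 2 was the highest library in both. *Got2*, the mitochondrial aspartate aminotransferase, had a log2 fold change of -0.04 with a standard error of 0.23, and its 6 libraries lay between 159 and 209 CPM.

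Across the 40 enzymes the KPF livers were ordered, with KPF 1 low and KPF 2 high. KPF 1 was the lowest of the 6 libraries in 24 members, against 23.3% of all tested genes, and the lowest of the KPF libraries in 32, against 34.2%. KPF 2 was the highest of the 6 in 18 members, against 19.3% of all tested genes. KPF 2 was above KPF 1 in 36 of the 40, against 50.1% of all tested genes, and at least 2-fold above it in 15, against 9.95%. No member was at least 2-fold lower in KPF 2. The 15 come from all roles, with *Tat* and *Hgd* of tyrosine, *Tdo2*, *Afmid* and *Kynu* of tryptophan, *Hal* and *Uroc1* of histidine, *Sds*, *Aass*, *Prodh* and *Aldh4a1*, the branched-chain genes *Bckdha*, *Ivd* and *Hibadh*, and *Gpt*. The median log2 ratio of KPF 2 to KPF 1 was 0.75 over the members and 0.00 over all tested genes. These are counts over genes of the same pair of livers, and the members are not replicates of a condition.

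Set against the WPF mean on the log2(CPM + 1) scale, the median of the 40 members was -0.51 in KPF 1, 0.36 in KPF 2 and 0.11 in KPF 3, and -0.01, -0.09 and 0.12 in WPF 2, WPF 3 and WPF 4. The SD of log2 CPM was larger in KPF than in WPF in 31 of the 40, against 63.0% of all tested genes, and its median over the members was 0.589 in KPF and 0.284 in WPF (0.332 and 0.25 over all tested genes). Some members went against this order. *Qdpr*, *Pcbd1* and *Gldc* were low in KPF 1 and KPF 2 alike, *Gstz1* hardly differed between the 3 KPF livers, and *Agxt* was lowest in KPF 2. The sum over 12 markers of periportal hepatocytes, the zone in which much of amino acid breakdown takes place, was 2393, 5169 and 2920 CPM in KPF 1, KPF 2 and KPF 3 and 3013 to 3630 CPM in WPF. Of these 12 genes 0 were called, against 9.82% of all tested genes. This list includes the members *Hal*, *Sds* and *Uroc1*. Without them the sum over the other 9 was 1958, 3764 and 1898 CPM in KPF and 2103 to 2680 CPM in WPF, so that KPF 2 was still the highest library but KPF 1 was no longer below KPF 3. The sum over 10 pericentral markers was 1641 to 2616 CPM in KPF and 1518 to 2797 CPM in WPF. The part of the zone sampled or of the muscle transcripts in KPF 2 in this order was not tested.

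**Figure D5:**
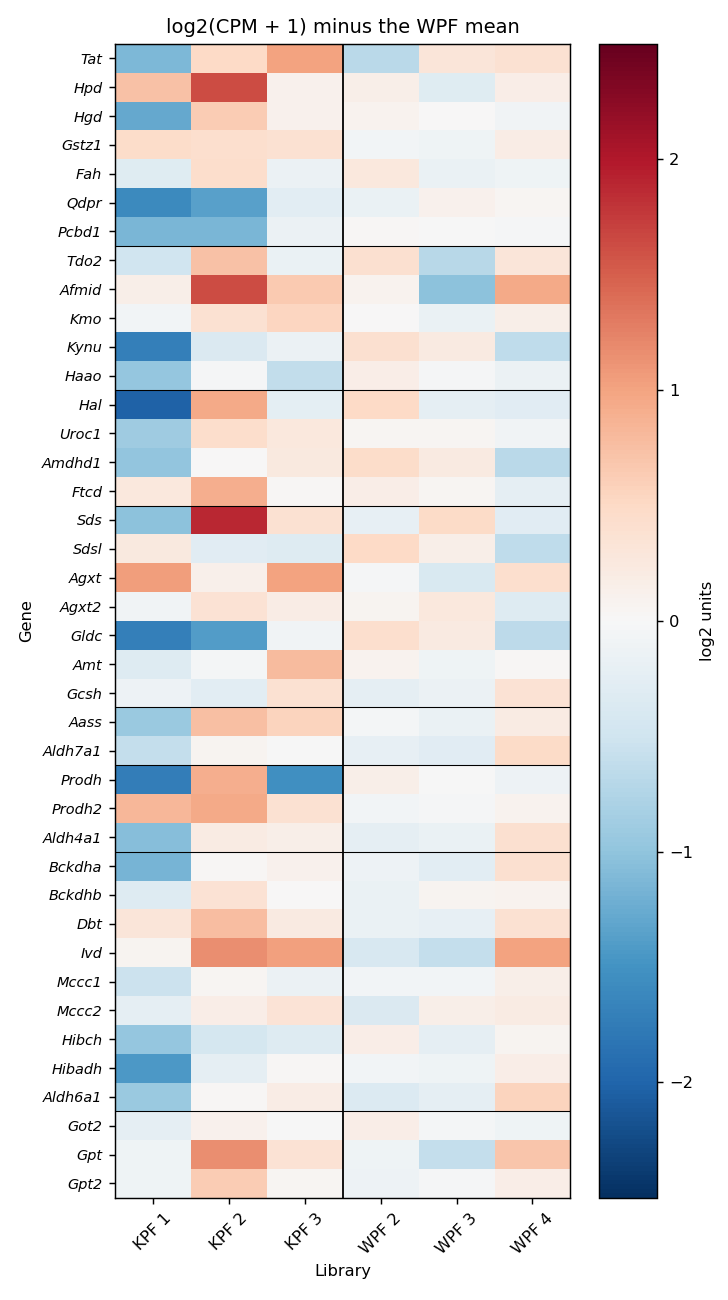
log2(CPM + 1) minus the mean of the WPF libraries for the 40 enzymes (rows, grouped by role) in the 6 libraries (columns), with red above and blue below the WPF mean. The KPF 1 column is mostly blue (median -0.51) and the KPF 2 column mostly red (median 0.36), while *Qdpr*, *Pcbd1* and *Gldc* are blue in both.

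The rest of the pathways gave few calls. Of 43 other enzymes that break down amino acids, 38 were expressed above the limit and 0 were called, against 9.82% of all tested genes. The median log2 fold change of the 38 was -0.06, with 15 estimates above and 23 below 0. In edgeR's test 1 of them had an unadjusted p under 0.05, against 10.8% of all tested genes. That 1 was *Shmt2*, the mitochondrial serine hydroxymethyltransferase, which was at 297, 298 and 271 CPM in KPF and 188, 218 and 196 CPM in WPF and did not overlap (log2 fold change 0.53, standard error 0.22, unadjusted p = 0.0462 by edgeR). Its cytosolic relative *Shmt1*, named after its values were seen, was at 58.5, 123 and 116 CPM in KPF and 165, 157 and 149 CPM in WPF and did not overlap either, in the other direction (log2 fold change -0.66, standard error 0.32, unadjusted p = 0.0704 by edgeR). The difference between the 2 genes was not tested. *Oat*, ornithine aminotransferase, had the next smallest p after *Shmt2* (log2 fold change 0.79, standard error 0.35, unadjusted p = 0.0581). Of 16 genes that control these pathways, 0 were called, against 9.82% of all tested genes. *Onecut1*, a transcription factor of the liver, had the smallest p among them (log2 fold change 1.05, unadjusted p = 0.0689 by edgeR). No controller had groups that did not overlap, against 15.7% of all tested genes. Of 18 amino acid carriers, 15 were tested and 2 were called (13.3% against 9.82% of all tested genes), both lower in KPF. Of the 15 estimates, 8 were above and 7 below 0. Besides *Slc25a44* this was *Slc38a2*, a carrier of small neutral amino acids, at 61.8, 101 and 81.6 CPM in KPF and 122, 140 and 111 CPM in WPF (log2 fold change -0.61, standard error 0.26, unadjusted p = 0.0468, adjusted p = 0.456 by edgeR). It was called without KPF 2 (-0.81), and with another library left out its unadjusted p was 0.0516 or more.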

How the data were processed

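Liver RNA of 3 KPF and 3 WPF dams was sequenced after poly(A) selection. The authors deposited, for each of 56691 genes, the read counts, FPKM values and the exonic length. Every deposited FPKM value equals, within rounding to 2 decimals, the count divided by length and library total. The submitters' processing notes name cutadapt 1.9.1, HISAT2 2.2.1, HTSeq 0.6.1, DESeq2 and GRCm39, without roles, and strand handling is not given in the sources used here. GENCODE M21 gave symbols for 52073 gene IDs and exon overlaps. It is built on GRCm38, as are the promoters, and no coordinates were mixed.

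Counts of 10866 genes (mean FPKM not below 1) were scaled by TMM (factors 0.891 to 1.18) and compared by edgeR 4.0.16 (R 4.3.3, quasi-likelihood test, Benjamini-Hochberg adjustment), after a test on simulated data. Figures used matplotlib 3.10.9. Called means an unadjusted p under 0.05 and at least 1.5-fold. Exact permutation tests used the 20 assignments of log2 CPM. Depth was 10694496 to 14496630 counted reads, and 2 members, *Sdsl* and *Bckdha*, had fewer than 100 reads in some library. Replicate libraries differed beyond counting noise (chi-square per gene of 48 or more). Alternatives were DESeq2 1.42.0, limma 3.58.1 on log2(FPKM + 1) and log2(FPKM + 0.1), other scalings and filters, the replicate block and leaving out each library. Leaving out KPF 2 and WPF 4 together was added after the data were seen.

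The members and lists were chosen with earlier results of these data known. Library values are given for called members, for the smallest p and the highest level in each role, and for the pairs *Sds* and *Sdsl*, *Gpt* and *Gpt2*, *Prodh* and *Prodh2*, and *Agxt* and *Agxt2*. Those of other members were added after the values were seen. From other lists, the called genes and the 2 with the smallest p may be named.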

Additional observations from a re-analysis of the deposited data

How the results depend on the processing

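The number of members called was 3 in the test reported, and it was 6 with DESeq2 (*Agxt*, *Gldc*, *Hpd*, *Pcbd1*, *Prodh2* and *Qdpr*) and 0 to 6 when single libraries were left out. The members' median log2 fold change was 0.03 and between -0.18 and 0.25 with each library left out. Over all genes, 634 were called higher and 433 lower. Library totals in place of TMM turned this split to 371 higher and 729 lower and shifted the median of all genes to -0.12 and that of the members to -0.10. Without the expression filter 1576 were higher, 910 lower and 286 passed an adjusted p of 0.05, and with a minimum mean FPKM of 5, which left 37 members, 255 were higher and 205 lower. DESeq2 gave 156 genes with an adjusted p under 0.05. With limma 238 genes were higher on log2(FPKM + 1), and on log2(FPKM + 0.1) 257 were higher, 681 lower and 1 passed the adjusted p. Leaving out each library gave 324 to 910 higher, 246 to 709 lower and 0 to 5 with an adjusted p under 0.05. Leaving out KPF 2 and WPF 4 together gave 657 lower and 44 with an adjusted p under 0.05, and 4 members were called (*Agxt*, *Haao*, *Ivd* and *Prodh*). The replicate numbers 2 and 3 occur in both groups but name different dams, and samples with the same number did not deviate together (correlations 0.0348 and 0.000337). A fit with the replicate block called 6 members (*Aass*, *Afmid*, *Gldc*, *Gpt*, *Ivd* and *Tat*) with a median of 0.32. The number 1 occurs only in KPF and the number 4 only in WPF, so KPF 1 and WPF 4 do not enter that contrast. It rests on KPF 2 and KPF 3 against WPF 2 and WPF 3. Of 597 values of single members, 35 were newly called and 26 were no longer called. Another 13, called in neither fit, changed sign and moved by at least the standard error of the test reported. The other 523 kept their status as called or not called, which sets no limit on how far their estimates moved. In all, 23 members, none of them called in the test reported, changed sign under some alternative. The causes were not tested. With these depths and 3 dams a group the standard errors of 0.23 to 0.68 leave changes near 1.5-fold undetectable in most members.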

Other observations

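A list of 12 genes that respond to glucocorticoids and fasting, which also drive several amino acid enzymes, had 3 called genes. That is 25.0%, against 9.82% of all tested genes, with 1 called higher and 2 lower. The estimates of the 12 were mixed, with 7 above and 5 below 0. *Pck1*, the gluconeogenic carboxykinase, was called higher at 266, 1721 and 322 CPM in KPF and 198, 129 and 314 CPM in WPF (log2 fold change 1.85, unadjusted p = 0.0409, adjusted p = 0.453 by edgeR), with KPF 2 far above the other 5 libraries. *Igfbp1* and *Lpin1* were called lower, with log2 fold changes of -2.46 and -1.98. *Igfbp1* ranged from 8.40 to 17.1 CPM in KPF, and WPF 2, WPF 3 and WPF 4 had 80.7, 122 and 12.6 CPM, so that WPF 4 was within the KPF range. Other marker lists gave sums of 148 to 195 CPM in KPF and 121 to 252 CPM in WPF for Kupffer cells and leukocytes, 26.7 to 36.1 and 24.9 to 52.1 CPM for cholangiocytes, 105 to 518 and 47.5 to 327 CPM for erythroid cells and 7.16 to 10.6 and 3.72 to 14.9 CPM for pancreatic acinar cells. Of these 4 lists, in the same order, 8 of 10, 2 of 6, 5 of 7 and 1 of 6 genes were tested. None of them was called, against 9.82% of all tested genes. The erythroid estimates were 5 above and 0 below 0 (0.40 to 0.97), and those of Kupffer cells and leukocytes 3 above and 5 below. All 5 tested genes of the adipose and muscle list were called higher, with sums of 36.8, 2289 and 9.99 CPM in KPF 1, KPF 2 and KPF 3 and at most 20 CPM in each WPF library.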
